A study of Mus musculus with 4 samples.

Results

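Gadd45a, Gadd45b, Gadd45g, Cdkn1a, Eda2r, Mdm2 and Trp53, a set of growth-arrest and p53-linked stress genes, were examined in tibialis anterior (TA) muscle, a lower-leg muscle, 14 days after the sciatic nerve was cut. The genes were picked by symbol because Gadd45a and Eda2r had risen strongly and Gadd45b had fallen after denervation in these same libraries. The denervation values below therefore describe the genes and are not tested. All 7 were present among the 13825 genes of the count table, and all 7 passed the filter on low counts (a mean of 10 or more over the libraries), which left 13084 genes.

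RNA was sequenced from adult male mice of 2 genotypes, wild type (WT) and whole-body Fgf21 knockout (Fgf21KO), the latter lacking a secreted metabolic hormone in every tissue. Of the 4 libraries, WS and WD came from sham and denervated WT muscle, and KS and KD from sham and denervated muscle of the knockout. Each was 1 pool of 4 TA muscles collected on day 14, so no comparison has replicates. The study's methods describe the sham limb as the contralateral limb, operated without cutting the nerve, whereas the labels describe the right leg as left innervated. By those methods both limbs belonged to the same mice, so WS pairs with WD and KS with KD as pools. The knockout was not checked against its own transcript, since Fgf21 was not analysed here.

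The total count per library ran from 25249879 (WS) to 34141303 (KS). Levels are given as CPM, the read count scaled to a fixed library size with edgeR's TMM factors, and differences as log2 ratios of these levels. A gene is said to have risen or fallen between libraries when its log2 ratio reached 1 in size, that is 2-fold. Intervals (95%) cover read sampling only, not the spread between mice. Of 8 fibre markers listed, only Myh1, a fast myosin heavy chain, was analysed, and it was abundant in all 4 libraries (510937 to 641610 counts).

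The GADD45 proteins are small acidic stress proteins that bind PCNA, the CDK1-cyclin B1 complex and the kinase MAP3K4 upstream of p38 and JNK, and that take part in DNA demethylation. Gadd45a and Cdkn1a are classic targets of the transcription factor p53, and both are known for their induction in denervated or immobilised muscle. Cdkn1a encodes p21, an inhibitor of cyclin-dependent kinases. Mdm2 encodes the ubiquitin ligase that marks p53 for degradation and is itself induced by p53. Eda2r encodes the receptor for ectodysplasin A2, a member of the TNF receptor superfamily that signals to NF-kB.

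The 250 bases before the transcription start are shown for the 5 genes that moved at least 2-fold, since the 3 GADD45 paralogs did not move in 1 direction. Sequences are RefSeq windows on GRCm38.p6, matched by symbol, and read 5′ to 3′ on the gene's strand. Gadd45a lay at chr6:67037408-67037657 (minus strand), Gadd45b at chr10:80929841-80930090 (plus), Gadd45g at chr13:51846425-51846674 (plus), Eda2r at chrX:97377210-97377459 (minus) and the upstream start of Cdkn1a at chr17:29090729-29090978 (plus). In the first 4, capitals mark the octamer ATGCAAAT and the CCAAT box CCAAT, on either strand. In Cdkn1a, capitals mark matches to the p53 consensus decamer, which p53 binds as a pair.
Gadd45a: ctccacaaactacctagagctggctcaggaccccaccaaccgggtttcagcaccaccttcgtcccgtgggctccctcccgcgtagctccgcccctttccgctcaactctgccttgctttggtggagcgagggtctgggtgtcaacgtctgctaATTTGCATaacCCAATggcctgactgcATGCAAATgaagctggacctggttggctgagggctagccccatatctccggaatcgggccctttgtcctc
Gadd45b: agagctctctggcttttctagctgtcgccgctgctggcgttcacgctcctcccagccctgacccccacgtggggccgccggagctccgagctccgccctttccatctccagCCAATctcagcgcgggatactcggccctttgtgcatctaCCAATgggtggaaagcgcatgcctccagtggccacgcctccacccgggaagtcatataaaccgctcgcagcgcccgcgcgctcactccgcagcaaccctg
Gadd45g: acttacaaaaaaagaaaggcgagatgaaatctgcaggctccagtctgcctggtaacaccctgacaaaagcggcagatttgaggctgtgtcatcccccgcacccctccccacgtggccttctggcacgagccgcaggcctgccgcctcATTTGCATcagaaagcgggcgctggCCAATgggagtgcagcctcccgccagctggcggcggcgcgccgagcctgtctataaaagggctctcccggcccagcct
Eda2r: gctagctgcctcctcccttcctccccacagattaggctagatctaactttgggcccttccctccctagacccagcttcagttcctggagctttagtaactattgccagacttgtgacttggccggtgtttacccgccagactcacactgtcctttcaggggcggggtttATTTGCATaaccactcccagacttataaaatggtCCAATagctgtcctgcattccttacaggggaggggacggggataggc
Cdkn1a: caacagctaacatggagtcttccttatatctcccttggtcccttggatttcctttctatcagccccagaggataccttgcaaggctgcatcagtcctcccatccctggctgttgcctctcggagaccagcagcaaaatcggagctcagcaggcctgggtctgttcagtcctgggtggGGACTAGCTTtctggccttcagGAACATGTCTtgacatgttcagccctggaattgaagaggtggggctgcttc

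The octamer occurred in the windows of Gadd45a (2 matches, 97 and 70 bases before the start), Gadd45g (103 bases) and Eda2r (81 bases). It was in 1.6% of the 32851 RefSeq windows of this length. The search for it was made after these windows had been read, and its carriers include genes of both directions. A CCAAT box was present in the windows of every member but Cdkn1a, against 33.8% of all windows. The upstream Cdkn1a window held 2 matches to the p53 decamer, 73 and 51 bases before the start, and Gadd45a (40 bases), Mdm2 (186 bases) and Trp53 (75 bases) held 1 each, against 7.13% of all windows. The second Cdkn1a start, at chr17:29093519-29093768, and the windows of Gadd45b, Gadd45g and Eda2r held none. The E-box CANNTG, present in 66.2% of all windows, occurred in those of Gadd45a, Gadd45b, Gadd45g, Mdm2 and the second Cdkn1a start, and the forkhead motif TGTTTAC (3.17% of all windows) in those of Eda2r and Mdm2. All motifs were searched on both strands, and the E-box of Gadd45a and 1 of those of Gadd45g overlap an octamer. Distances are from the RefSeq start. For Gadd45a that start lies inside the GENCODE M21 gene span given below, and the p53 decamer match falls within that span. These matches are descriptions of letters in short windows and no binding was measured.

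Gadd45a was the most abundant member after denervation and rose in both genotypes. It spans 67035096 to 67037457 of chromosome 6 in GENCODE M21 (GRCm38), with 4 exons. The sham libraries held 648 (WS) and 810 (KS) counts, the denervated ones 23083 (WD) and 21870 (KD). Scaled, this was 27.8 CPM in WS and 27.3 in KS, against 708 in WD and 707 in KD. Both sham pools were low and both denervated pools were high, with almost no distance between genotypes. The log2 ratio was 4.66 in WD vs WS (interval 4.56 to 4.78) and 4.69 in KD vs KS (4.60 to 4.80), that is 25.4-fold and 25.9-fold. Ordered by increase among the 13084 genes, Gadd45a had rank 21 in WT and rank 20 in Fgf21KO muscle.

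Gadd45b, on chromosome 10 from 80930073 to 80932204, moved the other way. Counts were 838 and 1192 in the sham libraries (WS and KS) and 198 and 145 in the denervated ones (WD and KD). On the CPM scale these were 36.0 and 40.1 against 6.07 and 4.69. It fell 5.88-fold in WT muscle (log2 ratio -2.55, interval -2.80 to -2.34) and 8.45-fold in Fgf21KO muscle (-3.08, interval -3.36 to -2.85). Ordered by decrease, it had rank 35 in WT and rank 16 in Fgf21KO muscle. Gadd45g, on chromosome 13 from 51846678 to 51848468, had 856, 419, 1452 and 492 counts in WS, WD, KS and KD, or 36.8, 12.8, 48.9 and 15.9 CPM. It fell 2.85-fold in WT (log2 ratio -1.51, interval -1.69 to -1.35) and 3.06-fold in Fgf21KO muscle (-1.61, interval -1.77 to -1.47). For both genes the denervated pools were below both sham pools.

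**Figure D1:**
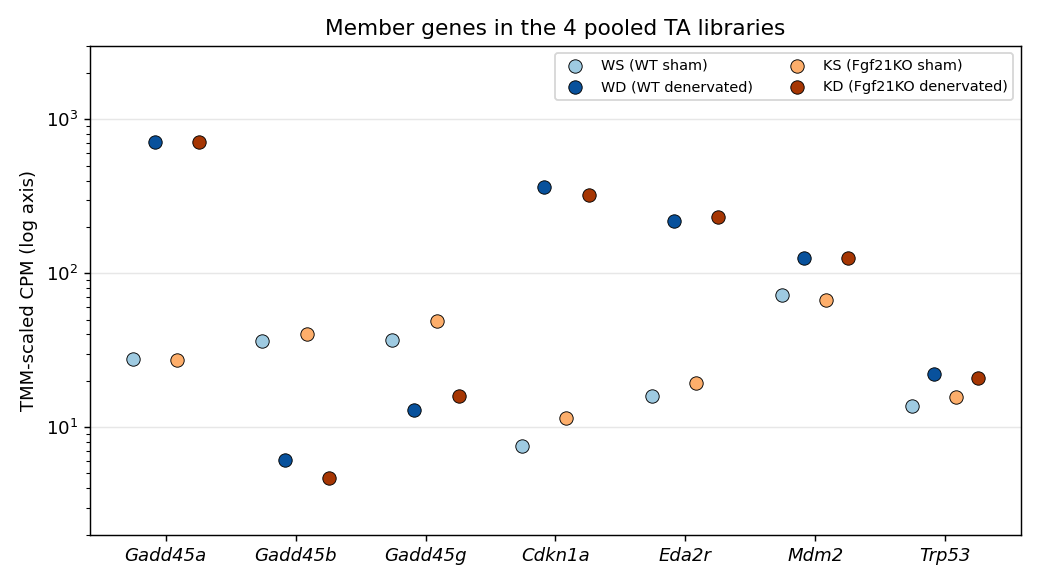
TMM-scaled CPM on a log axis for the 7 genes, 1 point for each pooled library (WS, WD, KS, KD). Denervated points lie above sham points for Gadd45a, Cdkn1a, Eda2r, Mdm2 and Trp53 and below them for Gadd45b and Gadd45g, with the genotypes close together.

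The make-up of the family therefore differed between sham and denervated muscle. Gadd45a took 27.7% of the reads on the 3 GADD45 genes in WS (exact binomial interval 25.9 to 29.5%) and 23.5% in KS (22.0 to 24.9%), less than Gadd45g (36.5% and 42.0%) and Gadd45b (35.8% and 34.5%). After denervation Gadd45a took 97.4% in WD (97.2 to 97.6%) and 97.2% in KD (96.9 to 97.4%). Per kilobase of the longest coding transcript the shares of Gadd45a were 26.8%, 97.2%, 22.5% and 96.9% in WS, WD, KS and KD, close to the shares of reads. The family as a whole reached 101 CPM in WS and 116 in KS, against 727 in WD and 728 in KD. It rose 7.22-fold in WT and 6.26-fold in Fgf21KO muscle, while Gadd45b and Gadd45g together fell 3.85-fold and 4.32-fold.

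**Figure D2:**
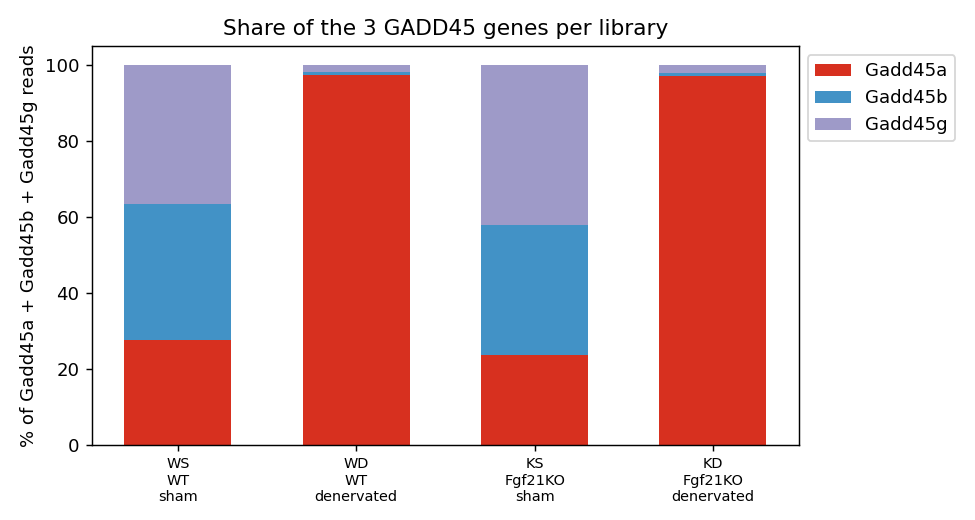
Share of the reads on Gadd45a, Gadd45b and Gadd45g (percent, stacked to the total of the 3 genes) in each pooled library. Gadd45a takes 27.7% in WS and 23.5% in KS, and 97.4% in WD and 97.2% in KD.

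Cdkn1a had the largest denervation ratio of the 7 genes and the largest difference between genotypes in sham muscle. The gene lies on chromosome 17 from 29090976 to 29100727. Counts were 175 in WS and 338 in KS, against 11926 in WD and 9971 in KD. On the CPM scale this was 7.52 in WS and 11.4 in KS, against 366 in WD and 322 in KD. The log2 ratio was 5.59 in WT (interval 5.39 to 5.83, 48.2-fold, rank 11 of all genes) and 4.82 in Fgf21KO muscle (4.67 to 4.99, 28.2-fold, rank 19).

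Eda2r, on chromosome X from 97333840 to 97377216, had 369 counts in WS and 577 in KS (15.9 and 19.4 CPM), against 7169 in WD and 7131 in KD (220 and 231 CPM). Both denervated pools were far above both sham pools. It rose 13.8-fold in WT (log2 ratio 3.79, interval 3.64 to 3.95) and 11.8-fold in Fgf21KO muscle (3.57, interval 3.45 to 3.69).

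Mdm2 and Trp53 differed less. Mdm2 (chromosome 10, 117688875 to 117710758) had 1674, 4097, 1984 and 3887 counts in WS, WD, KS and KD, or 71.9, 126, 66.8 and 126 CPM. Its log2 ratio was 0.80 in WT (interval 0.72 to 0.89) and 0.91 in Fgf21KO muscle (0.83 to 0.99), under 2-fold in both. With library totals in place of TMM factors it was past 2-fold in both (1.08 and 1.27). Trp53, the p53 gene itself (chromosome 11, 69580359 to 69591873), had 318, 723, 466 and 649 counts, or 13.7, 22.2, 15.7 and 21.0 CPM. Its log2 ratio was 0.70 in WT (0.51 to 0.89) and 0.42 in Fgf21KO muscle (0.25 to 0.60). Wrap53, which lies on the opposite strand and starts next to Trp53 at 69580255, had log2 ratios of 0.14 and -0.15. In the sham libraries there was less Cdkn1a than Trp53 RNA (a CPM ratio of 0.55 in WS and 0.725 in KS), whereas the ratio was 16.5 in WD and 15.4 in KD. The ratio of Mdm2 to Trp53 stayed between 4.26 and 5.99 in the 4 libraries.

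**Figure D3:**
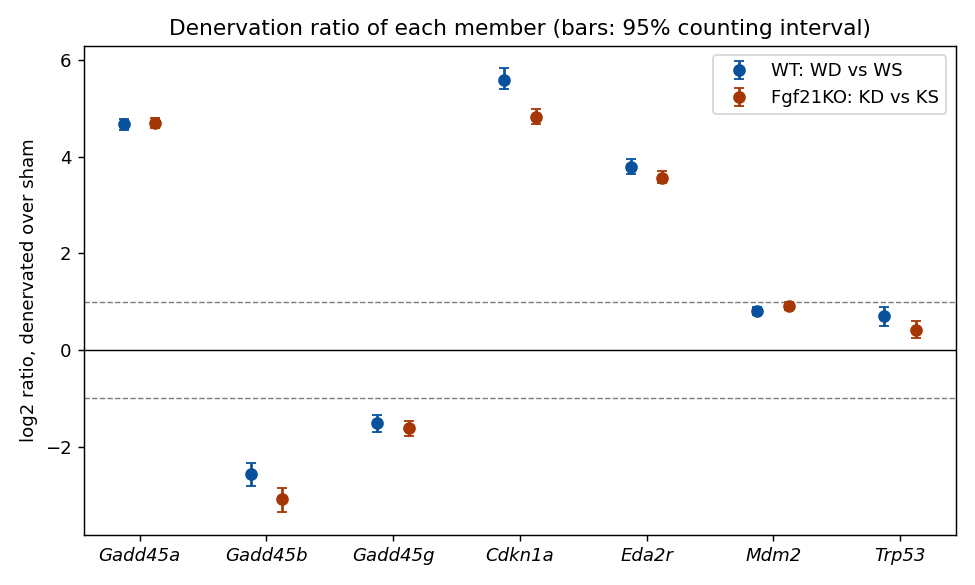
Log2 ratio of denervated over sham for each gene in WT and in Fgf21KO muscle, with 95% counting intervals as bars and dashed lines at 2-fold. Gadd45a, Cdkn1a and Eda2r lie above 3, Mdm2 and Trp53 between 0 and 1, and Gadd45b and Gadd45g below -1.

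In WD vs WS, 3 of the 7 genes rose and 2 fell, where 14.8% of all genes tested were at least 2-fold apart (7.25% higher and 7.52% lower). In KD vs KS, 3 rose and 2 fell, where 13.6% were apart (7.52% higher and 6.07% lower). Gadd45a, Cdkn1a and Eda2r rose in both genotypes, as did 5.14% of all genes, and Gadd45b and Gadd45g fell in both, as did 3.96%. The genes were chosen on these contrasts, so nothing is read from their share. They took 0.0193% of all reads in WS and 0.02% in KS, and 0.163% in WD and 0.159% in KD.

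Levels of different genes were compared per kilobase of the longest coding transcript in GENCODE M21. In WS the order from the highest was Gadd45g (34.3 CPM per kilobase), Gadd45b (28.0), Mdm2 (22.9), Gadd45a (22.8), Trp53 (7.32), Cdkn1a (3.62) and Eda2r (3.34). The counting intervals of Mdm2 and Gadd45a overlapped, as did those of Cdkn1a and Eda2r. In WD the order was Gadd45a (579 CPM per kilobase), Cdkn1a (176), Eda2r (46.3), Mdm2 (39.9), Gadd45g (12.0), Trp53 (11.9) and Gadd45b (4.73), with overlapping intervals for Gadd45g and Trp53. In KS, Gadd45a (22.3) and Mdm2 (21.2) were again neighbours with overlapping intervals, Gadd45g was the highest at 45.6, and Eda2r the lowest at 4.09. In KD the order ran from Gadd45a (578), Cdkn1a (155), Eda2r (48.5) and Mdm2 (40.0) to Gadd45g (14.9), Trp53 (11.2) and Gadd45b (3.65).

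The comparison of genotypes asks whether the loss of Fgf21 altered these levels. None of the 7 genes was 2-fold apart between genotypes in sham muscle, where 2.04% of all genes were (0.887% higher and 1.15% lower in the knockout). None was in denervated muscle, where 1.56% were (0.841% higher and 0.718% lower). In KS vs WS the largest log2 ratios were those of Cdkn1a (0.59, interval 0.33 to 0.87) and Gadd45g (0.41, interval 0.29 to 0.53). Eda2r (0.29, interval 0.10 to 0.48), Gadd45b (0.16, interval 0.03 to 0.29) and Mdm2 (-0.11, interval -0.20 to -0.01) were also past counting error, while the intervals of Gadd45a (-0.03) and Trp53 (0.20) included 0. In KD vs WD, Gadd45g was again higher in the knockout (0.31, interval 0.12 to 0.50), Eda2r was higher by 0.07 (0.02 to 0.12), and Cdkn1a (-0.18, interval -0.22 to -0.14) and Gadd45b (-0.37, interval -0.69 to -0.06) were lower. The intervals of Gadd45a, Mdm2 and Trp53 included 0 in denervated muscle.

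Genotype was tested in a model with genotype and denervation as additive terms, fitted to all libraries (edgeR's quasi-likelihood test, Benjamini-Hochberg adjusted over 13084 genes). In it the sham pair and the denervated pair stand in for replicates. By the study's methods both pairs came from the same mice, so the p-values do not measure the spread between mice. With an adjusted p-value below 0.05 and a log2 change of at least 1 in size, the model called 0.168% of all genes (0.0611% higher and 0.107% lower in the knockout) and 0 of the 7. DESeq2 also called 0 of the 7. Gadd45g was higher in both Fgf21KO libraries than in their WT counterparts, with a log2 change of 0.36 and an adjusted p-value of 0.132 in edgeR's test. The next lowest adjusted p-value was that of Eda2r (0.715, log2 change 0.15). Because the genotype term combines both pairs, genotype ratios of opposite sign largely cancel in it. Examples were Cdkn1a (0.59 in sham and -0.18 in denervated muscle) and Gadd45b (0.16 and -0.37).

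The denervation ratio of Cdkn1a was smaller in Fgf21KO than in WT muscle, with a log2 difference (Fgf21KO minus WT) of -0.77 and a counting interval of -1.04 to -0.51. That of Gadd45b was more negative in Fgf21KO muscle (difference -0.52, interval -0.86 to -0.19). The differences of Trp53 (-0.28, interval -0.53 to -0.02) and Eda2r (-0.22, interval -0.42 to -0.03) were just past counting error, and those of Gadd45a (0.03, interval -0.12 to 0.18), Gadd45g (-0.10, interval -0.33 to 0.12) and Mdm2 (0.11, interval -0.01 to 0.22) were not. Counting error alone was exceeded by 4 of the 7 genes and by 29.2% of all genes tested. With library totals for scaling, Trp53 (-0.20) and Eda2r (-0.15) came within counting error and Mdm2 (0.19) did not. The interaction leaves no residual degrees of freedom, so none of these differences was tested.

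**Figure D4:**
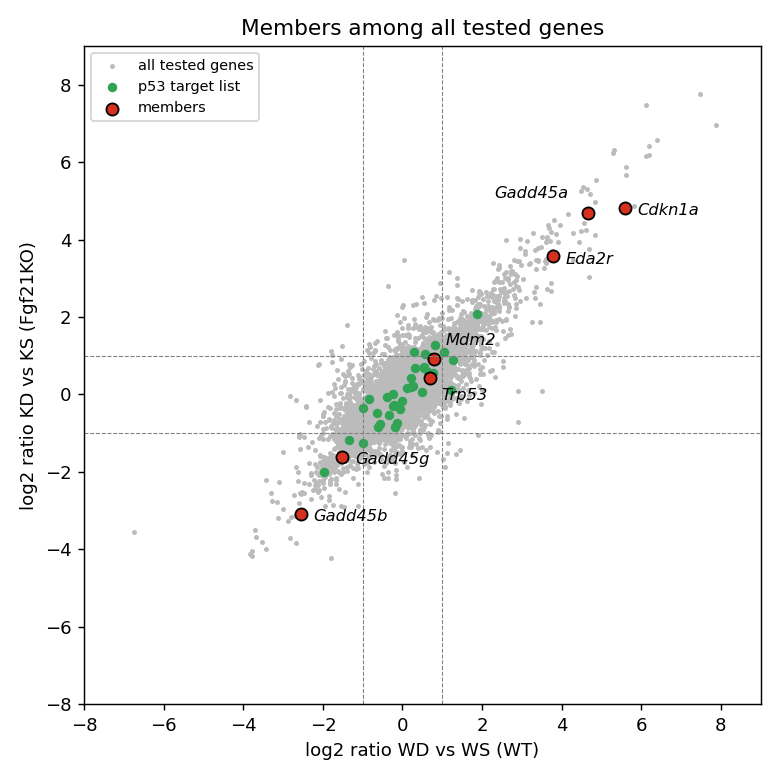
Log2 ratio in WT (WD vs WS, horizontal) against Fgf21KO muscle (KD vs KS, vertical) for all 13084 tested genes (grey), the listed p53 targets (green) and the 7 genes (red), with dashed lines at 2-fold. Gadd45a, Cdkn1a and Eda2r sit in the upper right, apart from the listed p53 targets. The 7 genes were chosen on these ratios, so nothing is read from that distance. Of the listed targets, Bbc3 reaches the highest ratios (1.87 and 2.09).

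Other genes of the pathways were read from lists written from textbook knowledge, using the denervation term of the additive model, with an adjusted p-value below 0.05 and a log2 change of at least 1. For the lists, rose and fell mean called higher or lower in the denervation term, so a single pairwise ratio can be under 2-fold. Among all genes 6.80% were called higher and 6.15% lower. Of 40 further p53 targets, 36 were tested, of which 4 rose (11.1%), 3 fell (8.33%) and 29 did not pass. Their median log2 ratio was 0.16 in WT and 0.09 in Fgf21KO muscle, against 0.01 for all genes in both. Bbc3, which encodes the pro-apoptotic protein PUMA, rose most (log2 ratios 1.87 and 2.09 in WT and Fgf21KO muscle, adjusted p = 4.31e-06 in edgeR's quasi-likelihood test), from 26 to 139 counts in WT. Btg2, an antiproliferative gene (1.28 and 0.90), Fdxr, which encodes ferredoxin reductase (1.05 and 1.09), and Pidd1, which encodes a death-domain adaptor (0.82 and 1.27), also rose. Pidd1 had few reads, with 24, 61, 16 and 43 counts in WS, WD, KS and KD. The fructose-bisphosphatase gene Tigar fell most (-1.97 and -1.99, adjusted p = 1.37e-14 in edgeR's test), from 4410 to 1576 counts in WT. Igfbp3, which encodes an IGF-binding protein (-1.35 and -1.16), and Polk, a translesion polymerase gene (-0.99 and -1.26), fell as well. With library totals for scaling, 8 of these targets rose and 1 fell.

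Among the targets that did not pass were several textbook ones, named here after their values were seen. Bax, a pro-apoptotic pore former, had log2 ratios of 0.67 and 0.50, Ccng1 (cyclin G1) -0.56 and -0.75, Sesn1 -0.33 and -0.53, Zmat3 0.76 and 0.54, and Phlda3 0.21 and 0.18. Each of these had an adjusted p-value below 0.05 in edgeR's quasi-likelihood test and missed only the log2 change of 1. Ccng1 was the most abundant of them by count, at 20554 to 33261 per library. In the same test 6924 of the 13084 genes had an adjusted p-value below 0.05. Other listed targets, such as Fas, Xpc and Aen, did not.

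**Figure D5:**
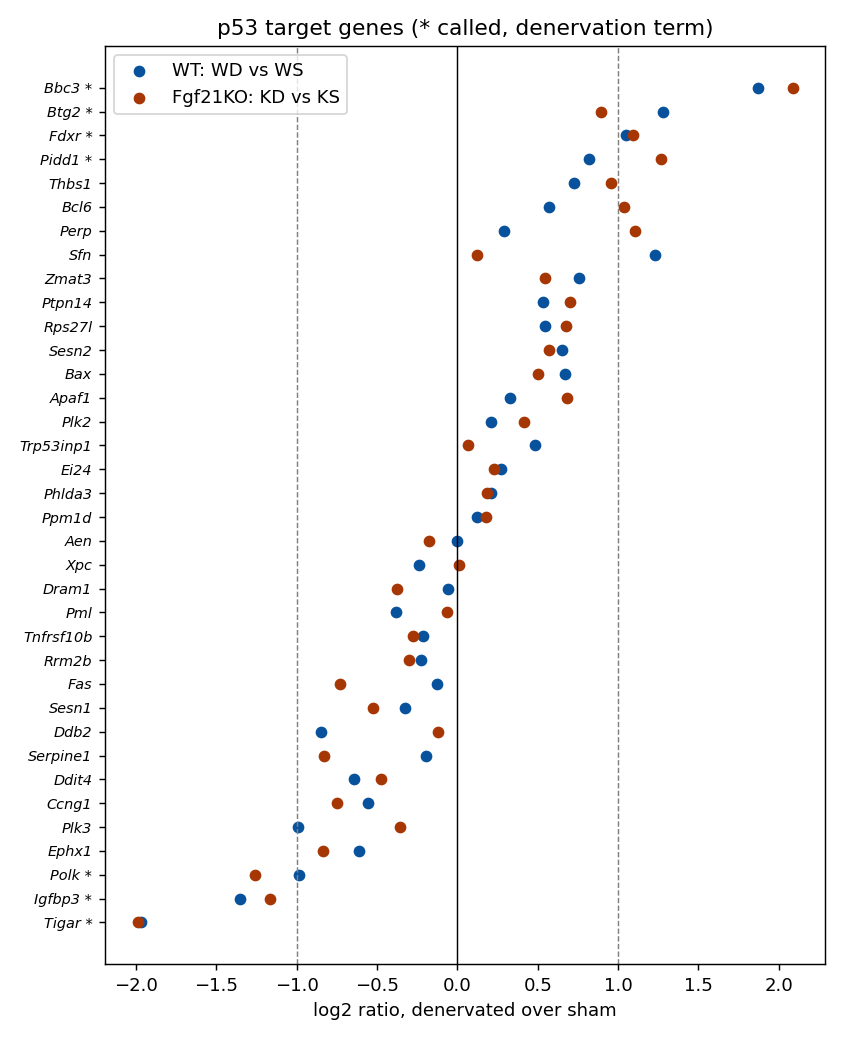
Log2 ratio of denervated over sham for the 36 listed p53 targets in WT and Fgf21KO muscle, ordered by the mean of both, with dashed lines at 2-fold. An asterisk marks the 7 genes called in the denervation term, from Tigar near -2 to Bbc3 near 2.

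Of 17 tested regulators of p53, 1 rose (5.88%) and 0 fell, or 4 and 0 with library totals for scaling, and DESeq2 also called 1 higher and 0 lower. The list had medians of -0.12 in WT and -0.02 in Fgf21KO muscle. The gene that rose was Mdm4, the paralog of Mdm2 that binds and restrains p53, from 1350 to 5872 counts in WT and from 1799 to 6838 in Fgf21KO muscle (log2 ratios 1.63 and 1.87, adjusted p = 2.16e-13 in edgeR's test). Its ratio was above that of Mdm2 in both genotypes.

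Of 17 tested binding partners and downstream kinases of the GADD45 proteins, 3 fell (17.6%) and 0 rose, and the list had medians of -0.30 in WT and -0.49 in Fgf21KO muscle. Those that fell were Mapk14, which encodes p38 alpha (-1.12 and -1.19), its activating kinase gene Map2k6 (-1.25 and -1.02), and Tet3, an enzyme of DNA demethylation (-1.14 and -0.88). With library totals for scaling 0 of the 17 were called. Map3k4, the kinase that GADD45 proteins bind, had log2 ratios of -1.04 and -0.91 and was not called, and Pcna had 0.48 and 0.55.

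Of 22 tested genes of ectodysplasin and NF-kB signaling, 2 rose and 2 fell (9.09% each), or 6 and 1 with library totals for scaling, with medians of 0.26 in WT and 0.27 in Fgf21KO muscle. Tnfrsf12a, the receptor for TWEAK (2.27 and 2.15), and Nfkb2, the precursor of the non-canonical NF-kB subunit p52 (1.68 and 1.81), rose. Tnfrsf19, a receptor related to EDA2R (-1.74 and -1.77), and Tnfsf12, which encodes TWEAK (-1.38 and -0.69), fell. Eda, the gene for the ligand of EDA2R, had 77, 110, 109 and 147 counts in WS, WD, KS and KD and log2 ratios of 0.03 and 0.37. Map3k14, the kinase NIK, had 0.62 and 0.30, and neither gene was called.

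Of 19 tested CDK inhibitors and G1 regulators, 3 rose (15.8%) and 0 fell, with medians of 0.11 in WT and -0.05 in Fgf21KO muscle. Rb1, the retinoblastoma tumour suppressor gene (2.42 and 2.29, from 542 to 4066 counts in WT), and E2f2, a transcription factor bound by it (2.38 and 2.54), both rose, and Ccne1 (cyclin E1) rose from 12 to 39 counts in WT and from 7 to 52 in Fgf21KO muscle. The other p21-family inhibitors were not called, with log2 ratios of -0.36 and -0.25 for Cdkn1b (p27) and -0.43 and 0.01 for Cdkn1c (p57). Of 11 listed regulators known from denervated muscle, 8 were tested, and Myog, Myod1 and Dach2 were not analysed here. Of the 8, 4 rose and 1 fell, or 4 and 0 with library totals for scaling. Among all genes 6.80% were called higher and 6.15% lower. The list was chosen with earlier results of these data known, so nothing is read from its share. Runx1 (6.41 and 6.57), Atf3 (2.85 and 2.23), Hdac4 (2.71 and 2.84) and the pseudokinase gene Trib3 (1.38 and 1.16) rose, and Hdac5 fell (-1.10 and -1.20). Atf4 had -0.63 and -0.88.

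Some markers of other cell types moved in these bulk libraries, where a change in the number of cells of a type and a change in RNA per cell cannot be told apart. Of 7 macrophage markers the denervation term called 4 higher, where 6.80% of all genes were called higher. Log2 ratios of the 7 ran from 0.69 to 3.35 in WT and 0.12 to 3.24 in Fgf21KO muscle. Their summed level was 25.4 CPM in WS and 26.7 in KS, against 60.8 in WD and 60.1 in KD. Of 5 endothelial markers the term called 2 lower, where 6.15% of all genes were called lower. The endothelial sums were 414, 194, 335 and 185 CPM in WS, WD, KS and KD. None of 6 markers of fibro-adipogenic progenitors met both criteria, with log2 ratios of -1.20 to -0.11 in WT and -0.96 to -0.30 in Fgf21KO muscle and sums of 601, 394, 594 and 406 CPM. Schwann cell markers (2 tested) summed to 5.46, 5.61, 6.70 and 4.95 CPM, and the single tested satellite cell marker, Vcam1, had 4.21, 3.83, 5.52 and 4.27 CPM. The 4 tested markers of dividing cells summed to 2.54, 5.76, 2.83 and 3.40 CPM, and Cdk1 had 9, 25, 17 and 5 counts. No marker of Schwann, satellite or dividing cells was called. The summed level of the 7 genes, chosen on the denervation contrasts, went from 210 to 1460 CPM in WT and from 230 to 1430 in Fgf21KO muscle. Its largest parts in WD were Gadd45a (708 CPM) and Cdkn1a (366), while Gadd45b and Gadd45g fell. The part of cell mixture in the ratios of the 7 genes was not tested.

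The 4 libraries were also searched for the genes closest to Gadd45a, Eda2r and Gadd45b in 3 log2 ratios (WD vs WS, KD vs KS and KS vs WS), among 11315 other genes (mean count 50 or more), by Euclidean distance. Nearest to Gadd45a were Tiam2 (distance 0.119), Sh3d19 (0.333), Cyfip2 (0.337), Mt2 (0.489) and Serpinb1a (0.549). Tiam2 had 49, 1866, 66 and 1830 counts in WS, WD, KS and KD and denervation ratios of 4.72 and 4.69. Nearest to Eda2r were Slc9a9 (0.217), Ugcg (0.259), Shroom3 (0.296), Spsb2 (0.383) and Mapk4 (0.385), of which Ugcg, the glucosylceramide synthase gene, was the most abundant at 293, 4994, 437 and 4830 counts. Nearest to Gadd45b were Slc16a3 (0.314), which encodes a lactate transporter, Nrep (0.345), Ighm (0.407), Spns2 (0.413) and Adamtsl4 (0.464). Slc16a3 fell from 10367 to 2098 counts in WT and from 12946 to 1499 in Fgf21KO muscle. These are likenesses over 4 libraries and carry no test.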

How the data were processed

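RNA from 4 pooled TA samples was sequenced with a stranded mRNA kit. The authors deposited raw gene counts and a second table named FPKM. The values of that table, read as the deposited log2 values, come from the counts, each multiplied by a library-wide factor and log2-transformed after adding 1, and were used as an alternative only. The submitters' processing notes name FastQC and GRCm39, and the aligner and counter were not given in the sources used here. Coordinates and sequences are from GENCODE M21 and RefSeq on GRCm38, and were matched by symbol, so none is in the authors' build.

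Counts were scaled by TMM over 13825 genes, and genes averaging under 10 counts were left out, leaving 13084 (R 4.3.3, edgeR 4.0.16). Library totals ran from 25249879 to 34141303. Pairwise log2 ratios used a prior count of 2, with exact 95% counting intervals. With 1 pool per group they have no test. The additive model of genotype and surgery has 1 residual degree of freedom, so its p-values assume that the response to surgery is the same in both genotypes. Calls needed an adjusted p-value below 0.05 (edgeR's quasi-likelihood test, Benjamini-Hochberg) and a log2 change of 1. DESeq2 1.42.0, other scalings, filters and prior counts were alternatives. The pipeline was tested on simulated data.

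Members and lists were chosen with earlier results of these data known. The text names the 7 genes, up to 3 of the highest and 3 of the lowest called genes of each list, and the 5 genes nearest to Gadd45a, Eda2r and Gadd45b, and other genes named beside a list were chosen after their values were seen. The octamer, CCAAT and forkhead searches were chosen after the windows had been read. Counting intervals treat reads as independent molecules.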

Additional observations from a re-analysis of the deposited data

How the results depend on the processing

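No paired analysis was possible because mice were pooled before sequencing, so limbs of single mice cannot be matched, and with 1 library in a group no replicate could be left out. With genotype in the additive model, its denervation term already compares the sham and denervated pools within each genotype. Of the summary results, 69 values under alternatives stayed within 1.5 times the main count and 6 did not. The 69 include the 2-fold counts of the 7 genes under other filters, which could not change, since scaling was set before filtering. Without the fold criterion the denervation term called 6924 genes (1695 with it) and the genotype term 75 (22 with it), and DESeq2's Wald test called 13 genes for genotype. With library totals for scaling, calls numbered 0 of the GADD45 partners (3 with TMM), 4 of the p53 regulators (1) and 7 of the EDA and NF-kB genes (4), since that scaling moves the median log2 ratio of all genes to 0.287 in WT and 0.364 in Fgf21KO muscle. The denervation term then called 1704 genes higher and 324 lower, against 890 and 805 with TMM. For the 7 genes, 217 log2 ratios and response differences under alternatives stayed within their counting intervals. The 217 include the log2 ratios under other filters, which could not change either. The other 14, all denervation ratios with library totals for scaling, did not, and none reversed. It put 6 of the 7 genes past 2-fold in each genotype. Depth limits the precision for Gadd45b, which had 145 counts in KD, and for Cdkn1a, which had 175 in WS.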
